A study of Macaca mulatta with 24 samples.

Results

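A set of 8 genes that move glutamate across membranes or convert it were followed in the nucleus accumbens core (NAcc) of 24 adult, unrelated male rhesus macaques. The 8 genes were SLC1A1, SLC1A2, SLC1A3, SLC7A11, GLUL, GLUD1, SLC17A6 and SLC17A7. They were picked by symbol from the 17208 genes in the table of values, and each symbol was found in 1 row. All 8 averaged 1 TPM or more (TPM, a share of the messenger RNA scaled by gene length and to a fixed total) and entered the tests. SLC17A6 was under 1 TPM in 16 of 24 animals and entered through Control replicate 6, without which its mean was 0.871 TPM. SLC7A11 and SLC17A6 had a mean under 10 TPM. The animals fell into 8 controls, 8 low or binge drinkers (LD*) and 8 heavy or very heavy drinkers (HD*), the last made of 4 HD and 4 VHD animals. Drinkers had been induced to self-administer ethanol by schedule-induced polydipsia and then had daily open access to ethanol and water for a year. Controls went through the same procedure with water on both spouts and received a maltose dextrin solution for calories. All animals were killed without imposed abstinence. Daily intake ran from 0.47 to 2.07 g/kg in LD* (median 1.82) and from 2.74 to 3.78 g/kg in HD* animals (median 3.09), so these ranges did not overlap. There were 4 cohorts. All groups were present in cohort 7a (2 controls, 3 LD*, 4 HD*), whereas cohort 5 had 3 controls with 4 HD*, cohort 7b had 3 controls with 3 LD*, and cohort 4 had 2 LD* animals alone.

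Glutamate released at a synapse is taken up mainly by astrocytes, the support cells that wrap synapses, and only to a small degree by neurons. Inside the astrocyte it is turned into glutamine, which is handed back to neurons, or is broken down in mitochondria. Neurons make glutamate again from glutamine and load it into vesicles. The principal neurons of the accumbens are GABAergic, and most glutamate there is released by axons whose cell bodies lie in cortex, thalamus, amygdala and hippocampus. Messenger RNA stays largely in the cell body, so a vesicular transporter message reports little on the terminals that end in a dissected piece. Which cells it came from in these samples was not tested. In bulk tissue, fewer cells of a type and less RNA per cell cannot be told apart.

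Several libraries stood apart before any comparison was made. The 10 striatal projection neuron markers, among them PPP1R1B, DRD1 and PENK, summed to between 2565 and 11200 TPM in 23 animals and to 739 TPM in Control replicate 6 of cohort 7b, where PPP1R1B was at 304 TPM. In this control the astrocyte and oligodendrocyte marker sums were the highest of all animals (11820 and 10070 TPM). The 3 genes TBR1, NEUROD6 and NEUROD2, which define excitatory neurons of the cortex, summed to at least 10 TPM in 6 animals, 2 in each group. In the other 18 animals they summed to between 0.0890 and 9.13 TPM. Results below are given with and without these animals where they moved. Within the HD* group, the summed striatal markers were lower in all VHD than in all HD animals, with values given beside that comparison. HD* replicate 8 of cohort 7a, a VHD animal, had the highest score of 84 ribosomal protein genes (mean of centred log2(TPM + 1), 0.72). Its scaling factor under TMM, a rescaling of libraries explained below, was the lowest of all animals at 0.689.

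GLUL and the astrocytic uptake genes SLC1A3 and SLC1A2 had the highest levels of the 8. Over all 24 animals, GLUL had a median of 1032 TPM, SLC1A3 of 842, SLC1A2 of 540, GLUD1 of 345, SLC1A1 of 53.3, SLC7A11 of 7.11, SLC17A7 of 3.87 and SLC17A6 of 0.437 TPM. By median, GLUL ranked 139 and SLC1A3 181 among the 17208 genes. SLC1A3 exceeded SLC1A2 in 24 of 24 animals, by a median ratio of 1.46, and GLUD1 exceeded SLC1A1 in 24 of 24. The order of GLUL over SLC1A3 held in 19 animals and that of SLC1A2 over GLUD1 in 22. SLC7A11 exceeded SLC17A7 in only 13 animals, so these 2 neighbours could not be ordered. The coefficient of variation over animals was 19.7% for GLUD1, 22.3% for SLC1A3, 25.3% for SLC1A2, 26.7% for GLUL, 27.0% for SLC1A1 and 43.3% for SLC7A11, against a median of 23.6% over all genes tested. It reached 150% for SLC17A6 and 204% for SLC17A7, which placed both above the 99th percentile of the genes tested.

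**Figure D1:**
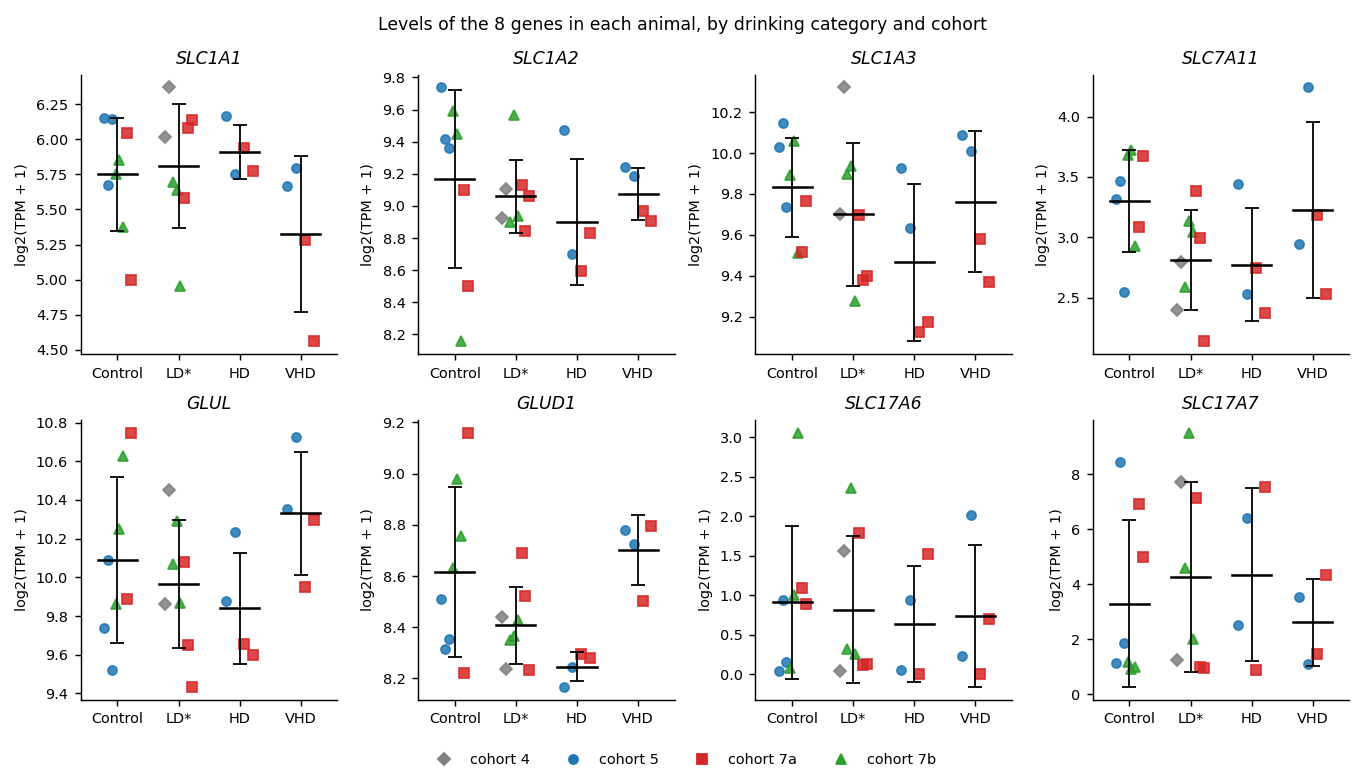
Levels of the 8 genes as log2(TPM + 1) in each of 24 animals (Control and LD*, n = 8 each; HD and VHD, n = 4 each), with cohort shown by colour and symbol; lines are means and bars SD of the log values. Every gene has overlapping groups except GLUD1 between HD and VHD, and SLC17A7 spans the widest range, from 0.866 to 722 TPM.

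No gene of the 13637 tested passed an adjusted p of 0.05 (limma, Benjamini-Hochberg) when HD* animals were compared with controls, a background of 0%, and 5.68% had an unadjusted p under 0.05. None of the 8 genes passed at either level. In LD* against controls the corresponding shares were 0% and 2.84%, and SLC7A11 was the only one of the 8 under the unadjusted limit. In HD* against LD* they were 0% and 1.08%, with none of the 8. Between HD* animals and controls, the median log2 difference over all genes was -0.12, and it was -0.01 when libraries were rescaled by TMM (trimmed mean of M-values). The differences of the 8 genes below are to be read against these medians. The 3 comparisons share animals and their values are given side by side. No cell type marker was called in HD* or LD* animals against controls. In both, all 10 astrocyte and all 10 oligodendrocyte markers had a difference under 0 and all 10 striatal markers one above 0. Control replicate 6, with the extreme marker sums given above, was among the controls in both. The list medians were -0.29, -0.37 and 0.42 in HD* and -0.28, -0.47 and 0.37 in LD* animals, beside -0.12 and -0.03 for all genes. After TMM they were -0.16, -0.25 and 0.54 in HD* and -0.24, -0.44 and 0.41 in LD* animals. Summed astrocyte markers ran from 2880 to 11820 TPM in controls, from 2390 to 6712 in LD* and from 2695 to 8130 in HD* animals, so the groups overlapped.

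SLC1A2 (GLT-1) is the main astrocytic glutamate transporter of the adult forebrain. It ran from 284 to 853 TPM in controls (median 669), from 458 to 757 in LD* (median 511) and from 386 to 709 in HD* animals (median 489). The 3 groups overlapped, and the lowest value was that of Control replicate 6. The mean was 516 ± 108 TPM in HD* animals and 607 ± 197 TPM in controls (SD, n = 8 each). The log2 difference was -0.18 with an SE of 0.19 and a 95% interval of -0.56 to 0.20 (limma, adjusted p = 0.734). With 1 animal left out it ran from -0.10 (without Control replicate 1) to -0.32 (without Control replicate 6). Within cohort 5 it was -0.36 (exact permutation test, two-sided p = 0.143) and within cohort 7a 0.02 (exact p = 1). LD* animals averaged 539 ± 95.5 TPM, a difference from controls of -0.11 (adjusted p = 1.00).

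SLC1A3 (GLAST) is the second astrocytic transporter and in the adult is best known from cerebellum and retina. It ran from 730 to 1134 TPM in controls (median 909), from 618 to 1279 in LD* (median 830) and from 557 to 1088 in HD* animals (median 779). Both drinking groups reached lower than any control, and the highest value was that of an LD* animal of cohort 4. HD* animals averaged 805 ± 205 TPM against 922 ± 152 TPM in controls, a log2 difference of -0.22 (SE 0.16, 95% interval -0.55 to 0.11, adjusted p = 0.706). The difference was -0.06 within cohort 5 and -0.33 within cohort 7a (exact two-sided permutation p = 0.686 and 0.2). With 4 animals against 2, p cannot go under 0.0667 in cohort 7a.

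SLC1A1 (EAAC1) is the transporter of neuronal cell bodies and dendrites and also carries cysteine. It ran from 31.0 to 70.1 TPM in controls (median 54.9), from 30.0 to 81.7 in LD* (median 57.2) and from 22.6 to 70.9 in HD* animals (median 53.3). The groups overlapped over nearly their whole range. The log2 difference of HD* animals from controls was -0.13 (SE 0.21, 95% interval -0.57 to 0.30, adjusted p = 0.813).

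SLC7A11 (xCT) exports glutamate in exchange for cystine and so feeds glutathione synthesis and the glutamate outside synapses. It ran from 4.85 to 12.2 TPM in controls (median 9.50), from 3.40 to 9.46 in LD* (median 6.46) and from 4.19 to 17.9 in HD* animals (median 6.20). The lowest control was undercut by 2 LD* and 3 HD* animals, and the highest animal of all was HD* replicate 4, a VHD animal. LD* animals averaged 6.26 ± 1.99 TPM against 9.22 ± 2.72 TPM in controls, a log2 difference of -0.49 (SE 0.24, 95% interval -0.98 to -0.01). The exact two-sided permutation p of this single gene was 0.0350, and it did not pass over all genes (limma, adjusted p = 1.00). Its unadjusted limma p was no longer under 0.05 after TMM or with cohort as a covariate. Within cohorts 7a and 7b the difference was -0.54 and -0.52, in designs that cannot go under an exact p of 0.1. HD* animals averaged 7.76 ± 4.54 TPM, a difference from controls of -0.30 (SE 0.24, adjusted p = 0.706). It was 0.18 within cohort 5 and -0.67 within cohort 7a. With the marker scores as covariates the SLC7A11 difference was -0.21 in LD* and -0.03 in HD* animals (adjusted p = 1.00 and 0.961).

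GLUL, glutamine synthetase, turns glutamate and ammonia into glutamine in astrocytes. It ran from 734 to 1716 TPM in controls (median 1018), from 690 to 1401 in LD* (median 1004) and from 773 to 1694 in HD* animals (median 1096). HD* animals and controls averaged 1121 ± 306 and 1133 ± 352 TPM, which differed by less than the spread (log2 difference -0.004, SE 0.19, 95% interval -0.39 to 0.38, adjusted p = 0.994). The sign changed with the scaling and was 0.12 after TMM. The cohorts went opposite ways. HD* animals averaged 1285 TPM against 892 TPM in the controls of cohort 5 and 957 against 1331 TPM in cohort 7a, log2 differences of 0.51 and -0.44 (exact two-sided permutation p = 0.114 and 0.267). The difference between these effects was -0.95 on the log2 scale (SE 0.40), with an unadjusted limma p under 0.05 and an adjusted p of 1.00. For this interaction 0% of all genes were called and 2.16% had an unadjusted p under 0.05, GLUL alone among the 8. Without Control replicate 8, which had the highest GLUL of all animals at 1716 TPM, the interaction was -0.53. Neither without this animal nor after TMM did any of the 8 genes have an unadjusted p under 0.05 for the interaction.

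GLUD1, mitochondrial glutamate dehydrogenase, links glutamate to the citric acid cycle. It ran from 298 to 571 TPM in controls (median 379), from 300 to 412 in LD* (median 336) and from 286 to 444 in HD* animals (median 337). The upper end of the controls was not reached by any drinker. The log2 difference from controls was -0.14 in HD* (SE 0.13, adjusted p = 0.715) and -0.21 in LD* animals (SE 0.13, adjusted p = 1.00). In cohort 7b the 3 LD* animals (325, 329 and 343 TPM) were all under the 3 controls (395, 432 and 504 TPM). The exact permutation p was 0.1, the smallest this design allows. The controls of cohort 5 (318 to 364 TPM) were likewise all under those of cohort 7b. SLC17A7 also separated in cohort 7b, from 3.06 to 722 TPM in LD* animals and from 0.897 to 1.24 TPM in controls. How many of all genes separate in this way was not counted. GLUL and GLUD1 have processed copies in primate genomes, and only uniquely aligned reads were counted, so their levels may miss reads shared with such copies.

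SLC17A7 (VGLUT1) and SLC17A6 (VGLUT2) load glutamate into vesicles. SLC17A7 is used mainly by cortical and hippocampal neurons and SLC17A6 mainly by thalamic, hypothalamic and brainstem neurons. SLC17A7 ran from 0.897 to 348 TPM in controls (median 1.96), from 0.939 to 722 in LD* (median 13.0) and from 0.866 to 186 in HD* animals (median 7.65). High and low animals occurred in every group, and the log2 difference between HD* animals and controls was 0.18 with an SE of 1.39 (95% interval -2.68 to 3.03, adjusted p = 0.962). Across animals SLC17A7 followed the cortical genes. The 6 animals with a TBR1, NEUROD6 and NEUROD2 sum of at least 10 TPM had the values 84.9, 119, 186, 212, 348 and 722 TPM. The next was LD* replicate 6, with a cortical sum of 9.13 TPM and SLC17A7 at 140 TPM, and the other 17 animals were at 30.5 TPM or lower. Over all animals the r of SLC17A7 with the score of the 7 cortical markers was 0.93 (rho = 0.78; permutation p = 1e-05 and 3e-05, the first the smallest that 100000 permutations can give; adjusted p = 0.00028 and 0.00042 over 56 pairs). It was 0.91 without the 2 animals farthest from the median of the score, 0.82 in the 18 animals with a low cortical sum, and 0.94, 0.93 and 0.94 within cohorts 5, 7a and 7b. Without the 6 animals the log2 difference of HD* animals from controls was 0.47 (adjusted p = 0.860). No direction is given for SLC17A7 in HD* animals, since a pseudocount of 8 and the cohort covariate each turned its sign.

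**Figure D2:**
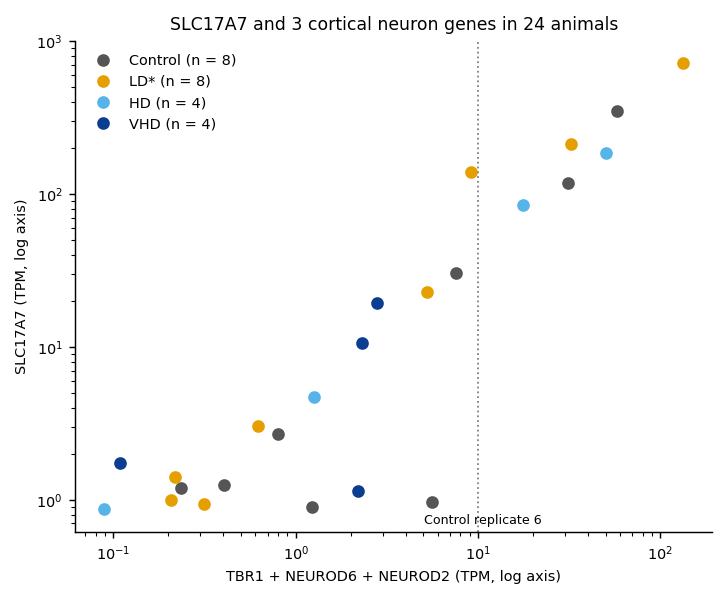
SLC17A7 (y axis, TPM, log scale) against the sum of TBR1, NEUROD6 and NEUROD2 (x axis, TPM, log scale) in 24 animals, coloured by drinking category, with the dotted line at 10 TPM. SLC17A7 is high where the cortical genes are high, and Control replicate 6 has 5.56 TPM of the cortical genes and 0.968 TPM of SLC17A7.

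SLC17A6 was low throughout, at 0 in 1 HD and 1 VHD animal. It ran from 0.0317 to 7.32 TPM in controls (median 0.885), from 0.0299 to 4.15 in LD* (median 0.217) and from 0 to 3.05 in HD* animals (median 0.404). The highest value was that of Control replicate 6, far from the other 7 controls at 1.14 TPM or lower. The log2 difference of HD* animals from controls was -0.22 (SE 0.42, adjusted p = 0.843) and was 0.08 without this control. Of the 5 markers listed for thalamic or other SLC17A6 neurons, TCF7L2, ZFHX4 and RORA had medians of 6.18, 5.65 and 3.26 TPM over the 24 animals. LHX9 and SHOX2 had medians of 0.0269 and 0.0442 TPM, and neither exceeded 0.261 TPM in any animal. TCF7L2 (15.4 TPM) and SHOX2 were highest in Control replicate 6, ZFHX4 and RORA in Control replicate 1, and LHX9 in Control replicate 2. SLC17A6 went with the cortical score (r = 0.60, rho = 0.84; permutation p = 0.00266 and 1e-05; adjusted p = 0.0143 and 0.00042 over 56 pairs), with r at 0.56 without the 2 extreme animals and 0.37, 0.86 and 0.54 within cohorts 5, 7a and 7b. Its r was as large with other scores. It was -0.71 with the striatal score (rho = -0.56; permutation p = 0.00029 and 0.00533; adjusted p = 0.00232 and 0.0230), -0.55 without the 2 extreme animals and -0.81, -0.08 and -0.87 within the cohorts. It was 0.70 with the astrocyte score (rho = 0.56; permutation p = 0.00021 and 0.00463; adjusted p = 0.00205 and 0.0216), 0.49 without the 2 extreme animals (adjusted p = 0.0824) and 0.79, 0.56 and 0.78 within the cohorts. With the oligodendrocyte score it was 0.56 (rho = 0.47; permutation p = 0.0048 and 0.0222; adjusted p = 0.0192 and 0.0733), and 0.35 without the 2 extreme animals (adjusted p = 0.3005). Control replicate 6, through which SLC17A6 entered the tests, had the lowest striatal (-3.12) and the highest astrocyte (0.84) and oligodendrocyte (1.62) scores. It was among the 2 extreme animals of each of these scores, so these correlations lean on the animal that admitted the gene.

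**Figure D3:**
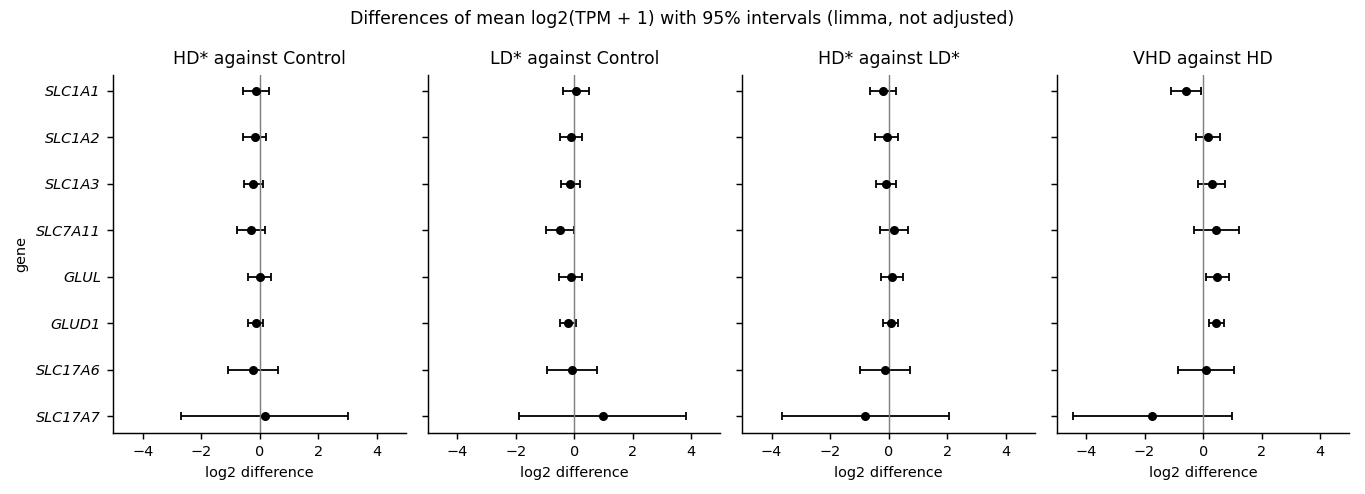
Differences of mean log2(TPM + 1) (x axis) for the 8 genes (y axis) in 4 comparisons, with 95% intervals from limma that are not adjusted for the number of genes. Intervals of HD* against Control all include 0, and that of GLUD1 between VHD and HD runs from 0.20 to 0.71.

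Within the HD* group, GLUD1 rose from HD to VHD animals. It was 286, 303, 310 and 313 TPM in the HD and 361, 422, 439 and 444 TPM in the VHD animals, so these groups of 4 did not overlap. The means were 303 ± 11.9 and 417 ± 38.1 TPM (SD), a 1.37-fold difference (log2 0.45, SE 0.12, limma adjusted p = 0.0270). The exact permutation p was 0.0286, the smallest that 4 against 4 allows. Of all genes, 14.6% were called in this comparison, 32.7% had an unadjusted p under 0.05 and 23.3% did not overlap, so 1 of 8 called is a share near the background. The call was lost when any of the 4 HD animals was left out (adjusted p = 0.0722 to 0.0849), with a difference of 0.43 to 0.47 in those fits. The same order held within cohort 5 (295 against 431 TPM) and cohort 7a (311 against 403 TPM). The HD values sat at the bottom of the control range, and the VHD values in the middle of it.

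GLUL and SLC1A1 had unadjusted p-values under 0.05 but did not pass over all genes. GLUL was 773, 807, 939 and 1201 TPM in HD and 990, 1256, 1306 and 1694 TPM in VHD animals (log2 difference 0.49, SE 0.19, adjusted p = 0.0947). Within each cohort the 2 VHD animals exceeded both HD animals in GLUL, and also in SLC1A3 and GLUD1. How many of all genes do so was not counted. The fit with cohort as a covariate gave GLUL an adjusted p of 0.0369 (limma), with 2757 of 13637 genes called. SLC1A1 was 53.0, 53.6, 60.4 and 70.9 TPM in HD and 22.6, 37.8, 49.8 and 54.4 TPM in VHD animals (log2 difference -0.58, SE 0.24, adjusted p = 0.116). Without HD* replicate 8, the lowest VHD animal, the difference was -0.33. Without HD* replicate 4 it was -0.74 and passed (limma, adjusted p = 0.0279), in a fit that called 4651 of all 13637 genes. For the remaining transporters HD and VHD animals overlapped. The log2 difference was 0.17 for SLC1A2 (95% interval -0.23 to 0.58), 0.30 for SLC1A3 (-0.17 to 0.76), 0.45 for SLC7A11 (-0.31 to 1.21), 0.11 for SLC17A6 (-0.85 to 1.06) and -1.73 for SLC17A7 (-4.46 to 1.00).

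Cell type markers differed between the same animals. The 10 striatal markers summed to between 8675 and 10250 TPM in HD and between 3209 and 5944 TPM in VHD animals. All 10 had a difference under 0, and 9 were called lower (5 after TMM). The 10 astrocyte markers summed to between 2695 and 4083 TPM in HD and between 5202 and 8130 TPM in VHD animals. Of these 10, 8 had a difference above 0 and GFAP alone was called higher (3 were called after TMM). GFAP and ALDOC, with medians of 1897 and 1794 TPM over all animals, made up most of this sum, and the other 8 had medians from 27.8 to 245 TPM. The astrocyte score, which weights the 10 markers equally, overlapped, from -0.56 to 0.02 in HD and from -0.38 to 0.67 in VHD animals. HD* replicate 8, a VHD animal, had the lowest GJA1, SOX9 and SLC4A4 of all 24 animals. The 9 microglial markers summed to between 324 and 426 TPM in HD and between 424 and 751 TPM in VHD animals. Of these 9, 7 had a difference above 0 and 4 were called higher. Oligodendrocyte sums overlapped (2554 to 4362 against 2495 to 5291 TPM). A difference above 0 was found for 4 of the 10 markers, and MBP alone was called higher. None of the 6 endothelial, 6 cortical or 3 thalamic markers tested passed. The score of 84 ribosomal protein genes ran from -0.36 to -0.19 in HD and from 0.09 to 0.72 in VHD animals. With the astrocyte and striatal scores as covariates the GLUD1 difference was 0.59 and no longer passed (adjusted p = 0.534), in a fit where no gene was called and 1334 genes had an unadjusted p under 0.05. Without the 2 HD animals of high cortical sum, the GLUD1 difference was 0.47 (adjusted p = 0.245), with 25 genes called. Of the genes called in VHD against HD, 441 were higher and 1556 lower, or 22.1% higher. After TMM 45.3% of 2581 were higher, the median of all genes moved from -0.17 to 0.01, and GLUD1 and GLUL both passed, with differences of 0.66 and 0.70 (adjusted p = 0.0284 and 0.0430).

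**Figure D4:**
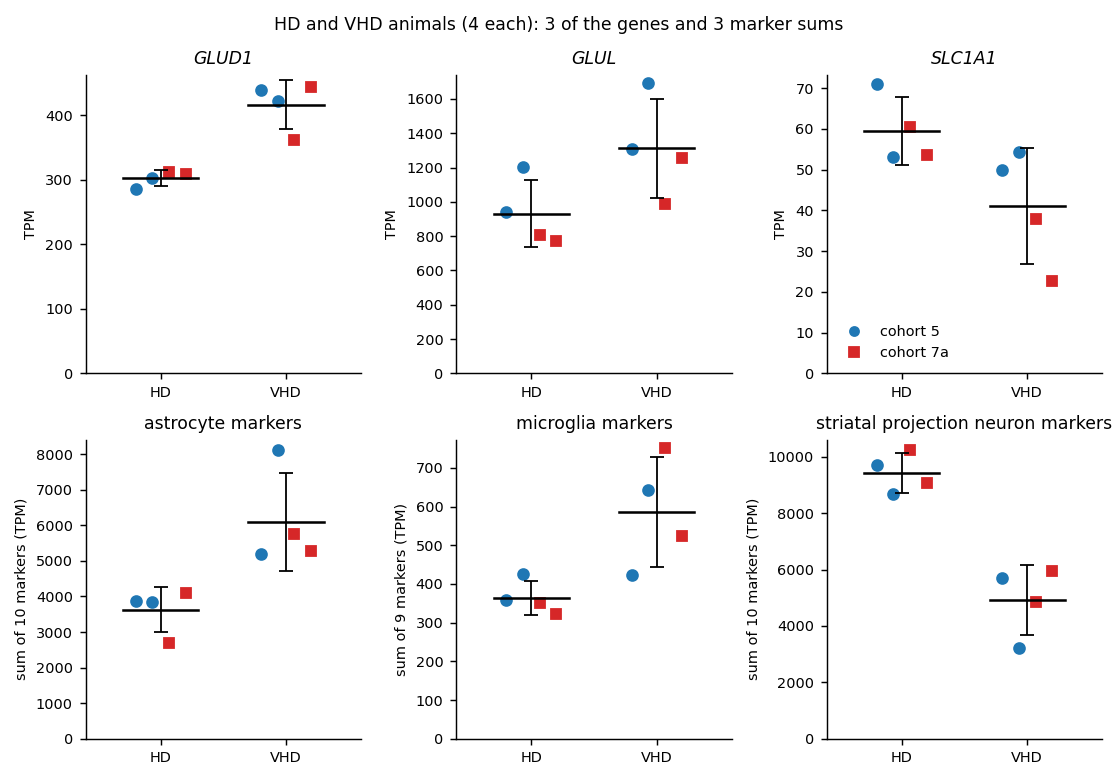
GLUD1, GLUL and SLC1A1 (TPM) and the summed astrocyte, microglial and striatal projection neuron markers (TPM) in 4 HD and 4 VHD animals of cohorts 5 and 7a; lines are means and bars SD. GLUD1, the astrocyte sum and the striatal sum do not overlap between HD and VHD, the first 2 being higher and the last lower in VHD animals.

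Among the 16 drinkers none of the 8 genes followed daily intake past the threshold. Of all genes 0% were called and 6.65% had an unadjusted p under 0.05, with none of the 8. SLC1A1 had a slope of -0.22 on the log2 scale per g/kg (SE 0.11, 95% interval -0.46 to 0.02, adjusted p = 0.512). GLUD1 had 0.10 per g/kg (SE 0.06), GLUL 0.05 (SE 0.10), SLC1A2 -0.02 (SE 0.08), SLC1A3 -0.09 (SE 0.10) and SLC7A11 0.14 (SE 0.14), with adjusted p-values from 0.512 to 0.901. SLC17A6 and SLC17A7 had slopes of -0.08 (SE 0.21) and -0.63 (SE 0.74).

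SLC1A3 differed most between cohorts among the 8 genes, though not past the threshold over all genes. SLC1A3 ran from 557 to 868 TPM in the 9 animals of cohort 7a (median 673) and from 794 to 1134 TPM in the 7 animals of cohort 5 (median 1029). In cohort 7b it ran from 618 to 1066 TPM, and the 2 animals of cohort 4 had 832 and 1279 TPM. With group in the model, the F of cohort was 5.77, with an unadjusted p under 0.05 and an adjusted p of 0.540 (limma). Of all genes 0% passed and 8.36% had an unadjusted p under 0.05, SLC1A3 alone among the 8. After TMM none of the 8 genes was under this unadjusted limit. Since only cohort 7a held all groups, cohort and group are partly tied.

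The 8 genes varied with each other in part, and 4 of 28 pairs passed (permutation test, 100000 resamples, adjusted over 28). The astrocytic transporters SLC1A2 and SLC1A3 went together (r = 0.59, rho = 0.67; p = 0.00218 and 0.00062; adjusted p = 0.0204 and 0.0174). Without the 2 most distant animals r was 0.60, and it was 0.59, 0.18 and 0.64 within cohorts 5, 7a and 7b, or 0.49 over all animals centred on cohort means (adjusted p = 0.0969). GLUL went with GLUD1 (r = 0.60, rho = 0.47; p = 0.00208 and 0.0212; adjusted p = 0.0204 and 0.0784). It no longer passed without the 2 most distant animals, on which this call rested (r = 0.44, adjusted p = 0.153), while r was 0.71 after TMM and 0.65 over animals centred on cohort means (adjusted p = 0.000933 and 0.0203). It was 0.57, 0.92 and 0.38 within the cohorts. GLUL also went with SLC17A6 (r = 0.62, rho = 0.60; p = 0.0011 and 0.00222; adjusted p = 0.0204 and 0.0311), with r of 0.63 without the 2 most distant animals and 0.80, 0.29 and 0.93 within the cohorts, or 0.49 after TMM (adjusted p = 0.0525). Without Control replicate 6, through which SLC17A6 entered, this r was 0.56 (permutation test, adjusted p = 0.0403). SLC1A1 and GLUD1 went opposite ways (r = -0.55, rho = -0.55; p = 0.0056 and 0.00613; adjusted p = 0.0392 and 0.0572). That r was -0.62 without the 2 most distant animals and -0.39, -0.78 and 0.33 within cohorts 5, 7a and 7b. With Control replicate 6 left out, 8 of 28 pairs passed. Within cohort 7b each r rests on 6 animals.

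Against the marker scores, 17 of 56 pairs passed, and GLUL gave the strongest after SLC17A7. Its r was 0.80 with the astrocyte score (rho = 0.75; p = 1e-05 and 5e-05; adjusted p = 0.00028 and 0.00056), 0.71 without the 2 most distant animals and 0.80, 0.76 and 0.88 within cohorts 5, 7a and 7b. With the striatal neuron score it was -0.74 (rho = -0.77; p = 2e-05 and 3e-05; adjusted p = 0.00037 and 0.00042), -0.72 without the 2 most distant animals and -0.86, -0.89 and -0.85 within the cohorts. With the microglial score GLUL had an r of 0.76 (rho = 0.79; p = 4e-05 and 2e-05; adjusted p = 0.00056 and 0.00042), 0.90 without the 2 most distant animals and 0.93, 0.79 and 0.53 within the cohorts. The microglial score also passed for SLC7A11 (r = 0.60, rho = 0.57; p = 0.0019 and 0.00435; adjusted p = 0.0126 and 0.0216), with r at 0.58 without the 2 most distant animals and 0.60, 0.81 and 0.49 within the cohorts. For GLUD1 it passed by r alone (r = 0.58, rho = 0.40; p = 0.0028 and 0.0520; adjusted p = 0.0143 and 0.126), with r at 0.54 without the 2 most distant animals and 0.34, 0.64 and 0.87 within the cohorts. SLC7A11 had an r of 0.69 with the astrocyte score (rho = 0.72; p = 0.00022 and 0.00017; adjusted p = 0.00205 and 0.00159), 0.77 without the 2 most distant animals and 0.92, 0.86 and 0.20 within the cohorts. SLC1A3 had 0.56 (rho = 0.64; p = 0.00437 and 0.00097; adjusted p = 0.0188 and 0.00604), 0.73 without the 2 most distant animals and 0.58, 0.85 and 0.12 within the cohorts. SLC1A2 had an r of 0.01 with the same score (rho = 0.27; p = 0.9753 and 0.194; adjusted p = 0.993 and 0.408). That r was 0.37 without the 2 most distant animals (adjusted p = 0.260) and 0.35 without Control replicate 6, and none of the 7 scores passed for SLC1A2. SLC1A1 went with the endothelial score (r = 0.60, rho = 0.66; p = 0.00202 and 0.00061; adjusted p = 0.0126 and 0.00488), which after TMM had an r of 0.02. With the striatal neuron score SLC1A1 had an r of 0.52 (rho = 0.65; permutation p = 0.0129 and 0.0008; adjusted p = 0.0424 and 0.0056). That r was 0.54 after TMM and 0.52 without the 2 most distant animals (adjusted p = 0.0193 and 0.0518). The thalamic score also passed for SLC1A1 by r (0.57, adjusted p = 0.0185), with an r of 0.09 after TMM. TPM are shares of 1 total, so genes of the abundant cell types are not free of each other in these correlations.

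**Figure D5:**
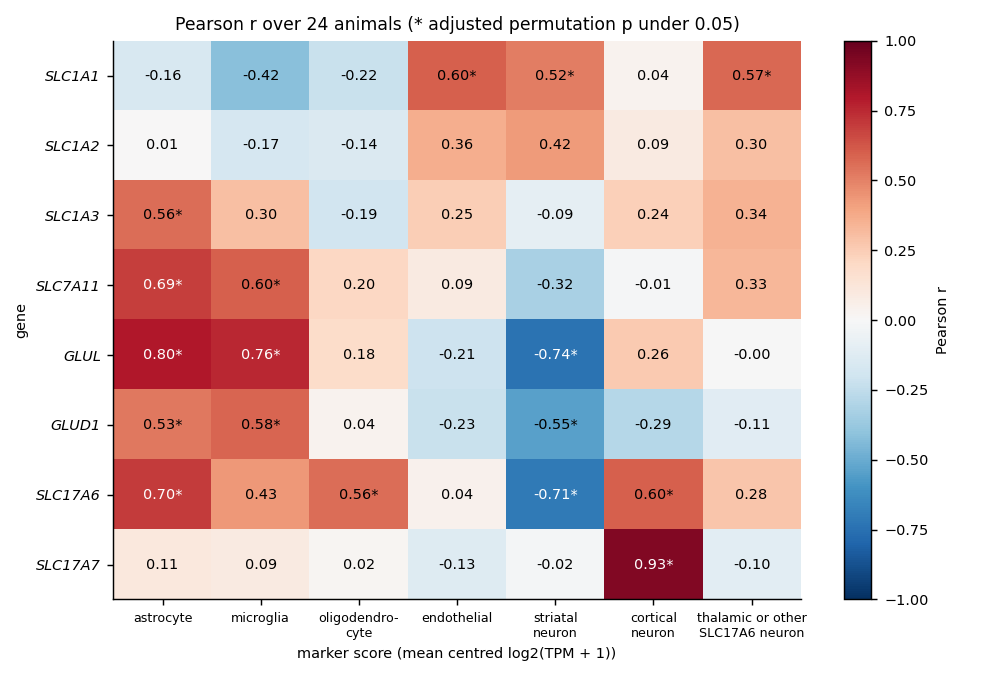
Pearson r over 24 animals between each of the 8 genes (rows) and 7 marker scores (columns), with an asterisk where the permutation p adjusted over 56 pairs was under 0.05. GLUL is red with astrocytes (0.80) and blue with striatal neurons (-0.74), SLC17A7 is marked in the cortical column alone (0.93), and SLC1A2 has no asterisk.

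The genes with the most similar pattern to each member were sought among the 9191 other genes that averaged 10 TPM or more, by the r of log2(TPM + 1) over 24 animals. They are descriptions without a test. For SLC1A1 they were STIM2, PSIP1 and CERS6 (r = 0.96 for each), and SLC1A1 itself had an r of -0.89 with the first principal component of all animals, which held 43.9% of the variance. For SLC1A2 they were TMOD2 (0.83), KLHL8 (0.82) and GPAM (0.80), and for SLC1A3 they were PPAP2B (0.85), CPE (0.84) and ITSN1 (0.82). For SLC7A11 they were CYBRD1 (0.83), IKBKB (0.81) and SNX5 (0.81). For GLUL they were MAPKAPK3 (0.92), GAREML (0.91) and ODF2 (0.90). GLUD1 lay nearest to GPT2 (0.86), a mitochondrial enzyme that moves an amino group between alanine and glutamate, then to PBXIP1 (0.82) and ARHGEF10L (0.81). For SLC17A6 they were NSDHL (0.92), CERCAM (0.87) and GALNT9 (0.87), and for SLC17A7 DIO2 (0.85), CPLX3 (0.85) and EXTL1 (0.82). Without Control replicate 6 the first neighbour was the same for SLC1A3, GLUL, GLUD1 and SLC17A6, and another gene for the other 4. With the first principal component GLUD1 and GLUL had an r of 0.68 and 0.65, and the members other than these and SLC1A1 lay between -0.37 and 0.35. Values on this component ran from -21.5 to -14.4 in HD and from 7.81 to 46.7 in VHD animals. Its part in the differences between HD and VHD was not tested.

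Of 52 related genes of glutamate transport and metabolism, 51 had values and 47 were tested. None of the 47 passed in HD* or LD* animals against controls or in HD* against LD*. In HD* animals against controls, 5 of 6 other plasma membrane carriers, 6 of 6 glutamine transporters, 16 of 17 enzymes, 4 of 5 mitochondrial carriers, 4 of 4 glutathione genes and 6 of 7 transporter partners had a difference under 0, with list medians between -0.22 and -0.09 beside -0.12 for all genes. After TMM these list medians lay between -0.11 and 0.04, beside -0.01 for all genes. Both vesicular relatives tested were under 0 as well, with a median of -0.36. The genes of smallest p in each list were SLC1A4 (-0.26), SLC17A5 (-0.31), SLC38A1 (-0.48), OAT (-0.23), SLC25A13 (-0.40), GCLC (-0.26) and ATP1B2 (-0.14), with adjusted p-values from 0.706 to 0.720.

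From HD to VHD, 7 of the 47 related genes passed, next to 14.6% of all genes. SLC25A18, a mitochondrial glutamate carrier, rose from 71.0 ± 16.9 to 150 ± 48.1 TPM (log2 1.05, SE 0.25, adjusted p = 0.0187). NDRG2, an astrocyte-enriched gene, rose from 1287 ± 273 to 2482 ± 298 TPM (0.96, SE 0.17, adjusted p = 0.00703). The other 5 fell. Among them GAD2, which turns glutamate into GABA, fell from 295 ± 32.4 to 148 ± 59.7 TPM (-1.08, SE 0.24, adjusted p = 0.0158). SLC7A8, a neutral amino acid carrier, was at -0.9985 (adjusted p = 0.0105), and PICK1, a scaffold of transporters and receptors, at -0.63 (adjusted p = 0.0174). After TMM, PICK1 was at -0.43 (adjusted p = 0.0510) and the other 6 still passed in the same direction. The striatal, astrocyte and microglial marker sums given above differed between the same animals, and their part in these results was not tested.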

How the data were processed

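RNA-Seq of the NAcc core of 24 macaques was used. The authors prepared polyA-selected libraries, aligned them to the MacaM assembly with STAR 2.5.2b, dropped reads with several alignments, used HTSeq 0.6.1p1 for gene counts and DESeq2 for their tests. The sources differ on whether libraries were stranded and reads paired. The deposited values were named normalized counts by the authors and were read as TPM from the values themselves. They sum to between 999998 and 1000000 per animal, and the lowest values share no common step, which CPM values would (of the lowest 500 non-zero values per animal, 92% to 95.8% were distinct). The gene lengths used are not given in the sources used here, and levels compared between genes rest on them. The totals are fixed, so the depth per animal is unknown and no counting error, interval or floor is given. All 24 columns were used, and no library repeated another (the r between animals ran from 0.821 to 0.990).

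Values were taken as log2(TPM + 1). A pseudocount of 1 understates differences of weakly expressed genes. The 13637 genes averaging 1 TPM or more were tested with limma 3.58.1 (moderated linear models with a mean-variance trend, R 4.3.3) and adjusted by the Benjamini-Hochberg method over all of them, with a threshold of 0.05. One model held the 3 groups and gave their pairwise differences. Separate models gave VHD against HD, the slope on intake, the effect of cohort beside group, and the HD* effect by cohort in cohorts 5 and 7a. Each animal is a biological replicate. Single genes were tested by exact permutation within cohorts, and correlations by 100000 permutations, in Python 3.11.15 (scipy 1.17.1, numpy 2.4.6, pandas 2.3.3, figures by matplotlib 3.10.9). Marker scores are means of centred log2(TPM + 1). The limma fits of HD* against controls, VHD against HD and the intake slope were tried on simulated data in which genes varied independently. The other tests were not tried in this way, and real genes vary together. The genes named are the 8 genes, the 3 most similar genes of each, related genes past the threshold, and the related gene of smallest p in each list for HD* against controls. Some genes that this rule names are not reported here. The 8 genes and the lists were chosen with earlier results of these data known. GLUD2 and PECAM1 were in the lists and had no row. Alternatives were other pseudocounts (0.1 and 8), filters (10 TPM or none), TMM rescaling (trimming 30% of M and 5% of A), array weights, covariates, subsets of animals, and fits that each left out 1 animal. Animals with a high cortical marker sum, Control replicate 6, the first principal component, and marker covariates for VHD against HD were examined after the data had been seen. No genome of the MacaM build was used here, so no coordinates or sequences are given. RefSeq names were found for all 8 genes.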

Additional observations from a re-analysis of the deposited data

Results flagged for a closer look

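For the 8 genes, 6 values lay far from the rest of their group by Dixon's test on TPM at the 95% level. It was run in 40 groups of 4 to 10 animals. Chance flags about 1 in 20 only if values are normally distributed and groups independent, and neither was tested. SLC17A7, with 3 of the 6 flags, had a coefficient of variation of 204%. LD* replicate 4 had the highest SLC1A2 of its group at 757 TPM (others 458 to 559) and also the highest SLC17A7 at 722.5 TPM (others 0.939 to 212). HD* replicate 4, a VHD animal of cohort 5, had SLC7A11 at 17.94 TPM (others 4.19 to 9.87). Control replicate 6 had SLC17A6 at 7.315 TPM (others 0.0317 to 1.14), in the library with the lowest striatal marker sum. Control replicate 2 had SLC17A7 at 348.4 TPM (others 0.897 to 119), and HD* replicate 7 had SLC17A7 at 185.8 TPM (others 0.866 to 84.9). The 3 animals with flagged SLC17A7 also had the highest sums of TBR1, NEUROD6 and NEUROD2, at 134, 57.7 and 50.5 TPM.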

How the results depend on the processing

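In HD* or LD* animals against controls, HD* against LD*, the intake slope and the cohort terms, none of the 8 genes passed under any alternative run. Depth is unknown, so what read number limits could not be judged; SLC17A6 and SLC7A11, at the lowest levels, are the least certain. Tests against intake rest on 16 animals and VHD against HD on 4 each. Causes of the changes below were not tested. No paired analysis was possible because each animal was measured once and replicate numbers pair no animals.

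Between VHD and HD, the number of the 8 genes called was 2 under TMM, array weights and the cohort covariate, 0 with marker covariates and 0 in animals with a cortical marker sum under 10 TPM, and 0 to 2 with 1 animal left out. The number of all genes called, 1997, became 2581 under TMM, 7613 with array weights and 2757 with the cohort covariate. It was 0 with marker covariates (limma, 1334 at an unadjusted p under 0.05) and 25 at a low cortical sum. It ran from 476 (without HD* replicate 6) to 4651 (without HD* replicate 4). For the HD* effect by cohort, 24 genes were called at a low cortical sum and 0 to 14 with 1 animal left out (14 without Control replicate 7), none of them of the 8. Of the pairs among the 8 genes, 8 passed without Control replicate 6 and 2 at a low cortical sum. Of the pairs with marker scores, 11 passed without the 2 most distant animals. Of 130 recomputed values of the correlations that had passed, 21 no longer did. The r of SLC1A1 and GLUD1 was 0.16 after regression on the first principal component.

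Signs turned in small or imprecise log2 differences, none of them past the threshold. For HD* against controls, GLUL was 0.12 under TMM, 0.068 with array weights, 0.11 with cohort, 0.23 with marker covariates, 0.096 in cohorts 5 and 7a and 0.019 at a low cortical sum. SLC17A6 was 0.085 with array weights, 0.22 with marker covariates and 0.054 in cohorts 5 and 7a. SLC17A7 was -0.056 with a pseudocount of 8, -0.19 with cohort and -1.28 in cohorts 5 and 7a. For LD* against controls, SLC1A2 was 0.068 with cohort, SLC17A7 -0.064 with array weights, and SLC1A3, GLUL and SLC17A6 were 0.039, 0.094 and 0.33 with marker covariates. For HD* against LD*, SLC1A2 was 0.018 under TMM and 0.094 at a low cortical sum, and SLC1A3 0.0026 and 0.13. With array weights GLUD1, SLC17A6 and SLC17A7 were -0.069, 0.16 and 1.08, and SLC17A6 was 0.18 with cohort and 0.064 at a low cortical sum. For VHD against HD, SLC7A11 was -0.049 and SLC17A6 -2.07 with marker covariates, SLC17A6 -0.59 with array weights, and SLC17A7 0.91 at a low cortical sum. For the intake slope, SLC1A2 was 0.052 under TMM and 0.076 at a low cortical sum. SLC1A3 was 0.042 without the 2 lowest-intake animals and 0.081 at a low cortical sum. SLC7A11 was -0.096 with cohort, SLC17A6 0.051 with array weights and 0.15 at a low cortical sum, and SLC17A7 0.29 with array weights.

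With 1 animal left out, the difference of HD* animals from controls ran from -0.096 to 0.089 for GLUL, -0.41 to 0.084 for SLC17A6, -0.40 to 0.91 for SLC17A7 and -0.24 to 0.018 for SLC1A1. That of LD* animals ran from -0.31 to 0.22 for SLC17A6 and -0.049 to 0.18 for SLC1A1. HD* against LD* ran from -0.32 to 0.088 for SLC17A6, -0.14 to 0.00058 for SLC1A2 and -0.16 to 0.0017 for SLC1A3, and VHD against HD from -0.32 to 0.40 for SLC17A6. The intake slope ran from -0.0010 to 0.18 for GLUL, -0.19 to 0.080 for SLC17A6, -0.057 to 0.0050 for SLC1A2 and -0.18 to 0.020 for SLC1A3. The HD* effect by cohort ran from -0.78 to 0.16 for GLUD1 and -0.51 to 0.54 for SLC1A1.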
